A study of Mus musculus with 9 samples.

Results

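Messenger RNA of 50 genes that copy DNA was followed in B16.SIY mouse melanoma cells after knockdown of Decr2, a peroxisomal enzyme that reduces unsaturated fatty acids during their oxidation. The genes were chosen by name from the origin recognition complex, the licensing factors, the replicative helicase, the sliding clamp and its loader, the DNA polymerases, the dNTP-making enzymes, cyclin E with E2f1, and Uhrf1. The deposited table held all 50 of them among 10762 genes in all.

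The design had 3 groups of 3 libraries, each group from 1 stable line: cells infected with lentivirus carrying Decr2 shRNA1, cells infected with Decr2 shRNA2, and cells infected with the control hairpin SHC002. All the lines were B16.SIY, a melanoma line from C57BL/6 mice engineered to make a SIY-dsRED fusion, in which SIY is a model antigen, and all had been selected with puromycin. Although the title of the series mentions tumors, its labels describe a line grown in culture. Within each group the libraries are numbered 0, 1 and 2, and values are given in that order. Whether replicates came from separate cultures is not in the labels, so p-values measure only how far the libraries of a group lie apart, and this spread may be technical.

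A cell prepares each replication origin in G1, when the origin recognition complex, Cdc6 and Cdt1 load the MCM helicase ring onto DNA. In S phase, cyclin E with its kinase, Mcm10, Cdc45 and the GINS complex set the loaded helicase running, primase and the polymerases copy the strands, and the PCNA clamp holds the polymerases to DNA. The nucleotides come from ribonucleotide reductase, thymidylate synthase and the salvage kinases, and many of the genes for these proteins are driven by E2F transcription factors as cells enter S phase.

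The deposited values are on a log2 scale, and the number of reads behind them is unknown. Decr2 itself was at 2.87, 2.51 and 3.18 in the shRNA1 libraries, at 0.84, 1.18 and 1.55 in the shRNA2 libraries and at 3.96, 4.10 and 3.71 in the control libraries, so all 6 hairpin libraries lay below all 3 controls. Libraries of 1 group correlated at 0.966 to 0.994 over all genes and libraries of different groups at 0.955 to 0.988. All 9 melanocyte markers looked for were listed, Mitf, Dct, Tyr and Pmel among them. Their summed level, as log2, ran from 13.93 to 14.55 with shRNA1, from 13.95 to 14.81 with shRNA2 and from 14.42 to 14.61 in control. In both hairpin lines replicate 0 was the highest for each of these markers, except Tyrp1 with shRNA1. Pmel was at 11.79, 11.07 and 11.03 with shRNA1, at 12.22, 11.11 and 11.08 with shRNA2 and at 11.74, 11.74 and 11.73 in control. Of 27 markers of immune, stromal, endothelial, epithelial and red blood cells the table had 5 (Plvap, Postn, Pdgfrb, Col1a1 and Lck), and the lack of the others does not show that they were silent. The summed level of those 5 ran from 4.94 to 5.06 with shRNA1, from 4.77 to 4.92 with shRNA2 and from 4.69 to 5.27 in control, and no marker of either list passed the test in any comparison with control. With the replicate number as a block some did: in the average Gpnmb (-0.61, adjusted p = 0.0196) and Sox10 (-0.24, 0.0449) fell and Col1a1, a collagen of stromal cells, rose (1.45, 0.0175). Gpnmb (0.0234) and Col1a1 (0.0199) also passed with shRNA1, and Sox10 (0.0441) and Mlana (-0.59, 0.047) with shRNA2. Col1a1 was at 1.59, 1.23 and 0.97 with shRNA1, at 1.31, 0.42 and 0.56 with shRNA2 and at 1.14, -1.13 and -1.33 in control. Its values lay below the median gene of every library (5.35 to 5.38), and control replicate 0 lay among the hairpin libraries. The part of these markers in the results was not tested.

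A share of the replication genes was lower in the Decr2 knockdown lines, and none passed as higher. By adjusted p in the average of both hairpins, though not by size, Cdc6, Tyms, Mcm5, Rrm2 and Uhrf1 came first. When both hairpins were averaged and set against control, 16 of the 50 genes fell, 0 rose and 34 did not pass (limma, Benjamini-Hochberg adjusted p under 0.05 over all genes), where 7.89% of all 10762 genes were called lower and 9.69% higher. The 16 stood at 59.5% (Cdc6) to 82.7% (Prim2) of control. With Decr2 shRNA1 16 of 50 fell and 0 rose, against 5.49% of all genes lower and 6.92% higher. With Decr2 shRNA2 14 of 50 fell and 0 rose, against 5.67% of all genes lower and 7.27% higher. The median member was at -0.22 with shRNA1, -0.19 with shRNA2 and -0.20 for the average of both, and the median of all genes was at 0.00 with each hairpin. These comparisons share the 3 control libraries. With the lowest 25% of genes removed, the median of all genes was at -0.03 with shRNA1 and -0.02 with shRNA2. In that fit 9.57% of the genes kept were lower in the average and 7.77% higher. In bulk RNA, fewer cells in S phase and less RNA per cell cannot be told apart.

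The same was visible library by library. In 21 of the 50 genes all 6 hairpin libraries lay below all 3 control libraries, against 10.9% of all genes, and in 0 of the 50 did all 6 lie above, against 12.0% of all genes. The median member, set against the mean of the control libraries, was at -0.24, -0.21 and -0.20 in the shRNA1 libraries, at -0.23, -0.14 and -0.17 in the shRNA2 libraries and at -0.09, 0.04 and 0.04 in the control libraries. The hairpin libraries lay below every control library in this median, while the median of all genes stayed within 0.02 of zero in every library. The counts moved with single libraries. Without control replicate 1, 4 genes fell with shRNA1, 4 with shRNA2 and 8 in the average, where 1.19%, 1.43% and 2.22% of all genes were lower, and without control replicate 2 the counts were 4, 4 and 7, where 1.21%, 1.38% and 2.20% were. With these libraries left out, fewer genes of the whole table passed too. Leaving out shRNA1 replicate 1 or 2 lowered the shRNA1 count to 9 and 10, where 3.33% and 2.69% of all genes were lower. Leaving out shRNA2 replicate 0, 1 or 2 lowered the shRNA2 count to 9, 5 and 5, where 4.07%, 1.62% and 1.84% were. Without shRNA1 replicate 0, 17 genes fell with shRNA1, 17 with shRNA2 and 20 in the average, and Orc5 rose in the average. In that fit 6.72%, 10.3% and 11.6% of all genes were lower. Without the 3 libraries numbered 0 the counts that fell were 28 with shRNA1, 25 with shRNA2 and 29 in the average, and 2, 3 and 3 rose (Orc4 and Orc5 in each, with Rpa3 for shRNA2 and the average). In that fit 16.9%, 18.1% and 20.5% of all genes were lower, so the counts grew over the whole table. With the replicate block 23, 21 and 24 of the 50 fell, where 11.2%, 10.6% and 14.1% of all genes did. Quantile normalization gave 8 with shRNA1, against 4.43% of all genes.

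**Figure D1:**
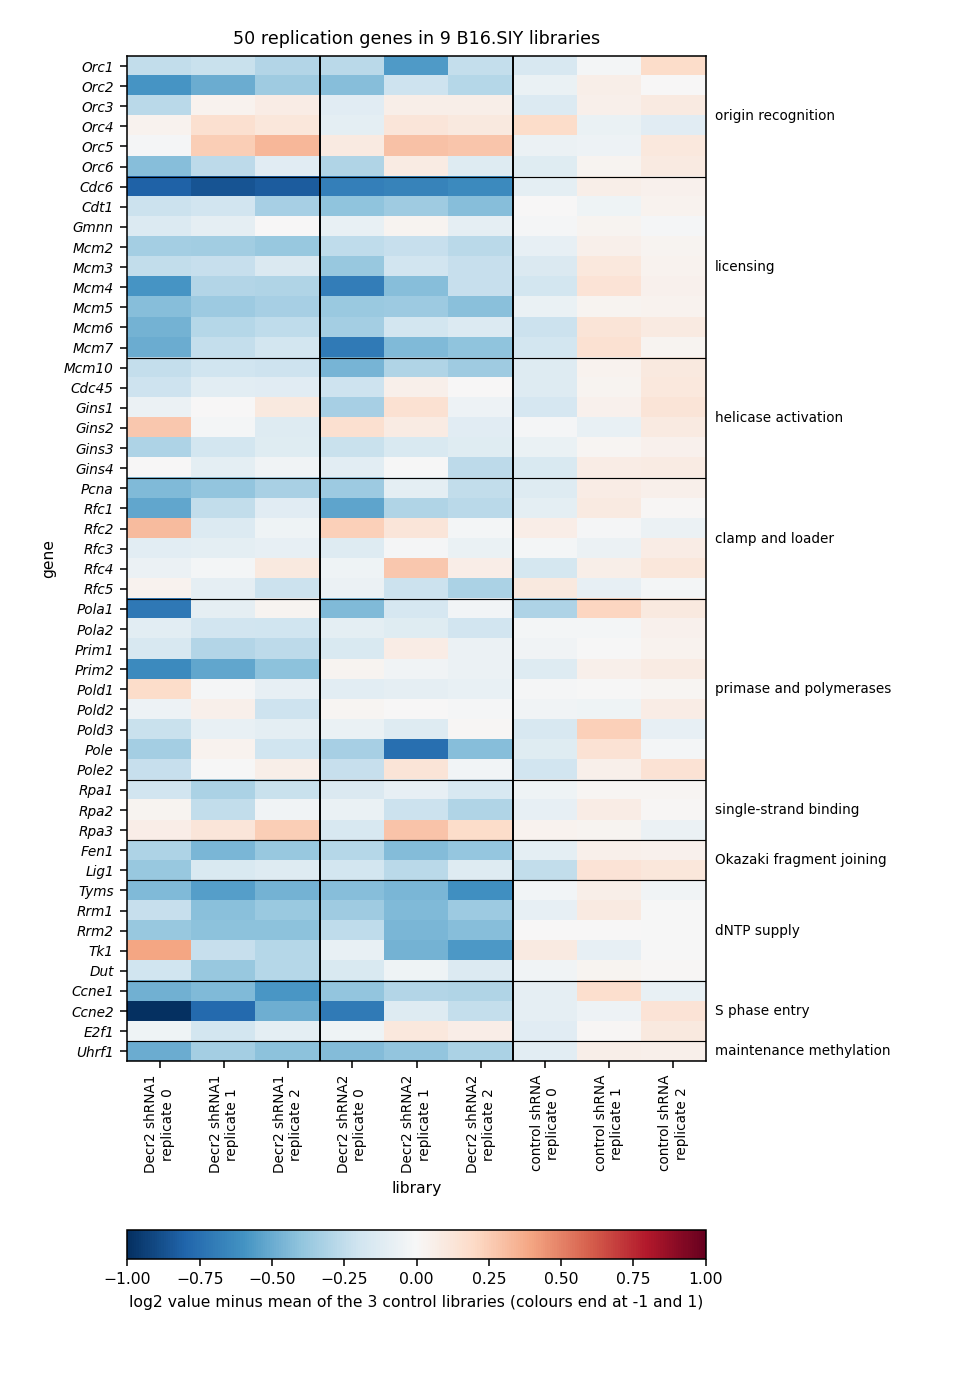
Log2 value of each of the 50 replication genes in each library minus the mean of the 3 control libraries, with the genes down the page by step of replication, the Decr2 shRNA1 and shRNA2 libraries at the left and centre and the control libraries at the right. Blue marks lower and red higher than control; Cdc6, Tyms, Rrm2 and Uhrf1 are blue in all 6 hairpin libraries, while Gmnn and E2f1 are pale in all of them.

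The medians of the steps ran from -0.09 to -0.42. In the average of both hairpins the median gene was at -0.32 for licensing (6 of 9 fell), -0.36 for dNTP supply (3 of 5 fell), -0.42 for S phase entry (1 of 3 fell) and -0.29 for Okazaki fragment joining (1 of 2 fell). It was at -0.11 for origin recognition (1 of 6 fell), -0.09 for helicase activation (1 of 6 fell), -0.11 for the clamp and its loader (1 of 6 fell), -0.14 for primase and the polymerases (1 of 9 fell) and -0.14 for single-strand binding (0 of 3 fell). Differences between steps were not tested, since genes of a step are not replicates.

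**Figure D2:**
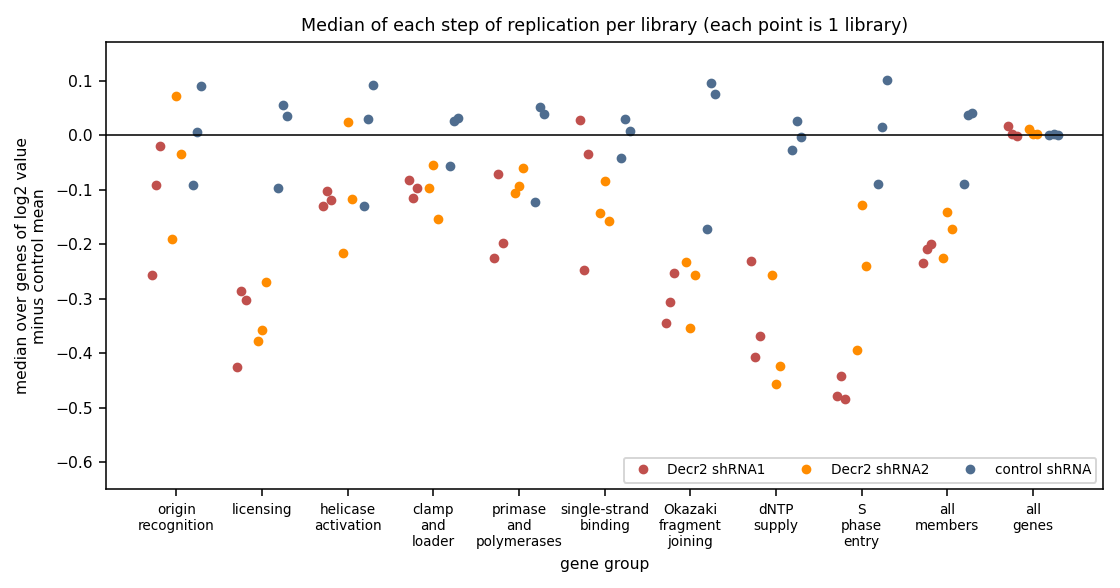
Median over the genes of each step of the log2 value minus the control mean, per library, with Decr2 shRNA1, Decr2 shRNA2 and control libraries side by side in each step and 1 point per library. In licensing, Okazaki fragment joining, dNTP supply and S phase entry every hairpin library lies below every control library. In origin recognition, helicase activation, the clamp and loader, primase and polymerases and single-strand binding the groups overlap. All genes of the table are shown at the right for scale.

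**Figure D3:**
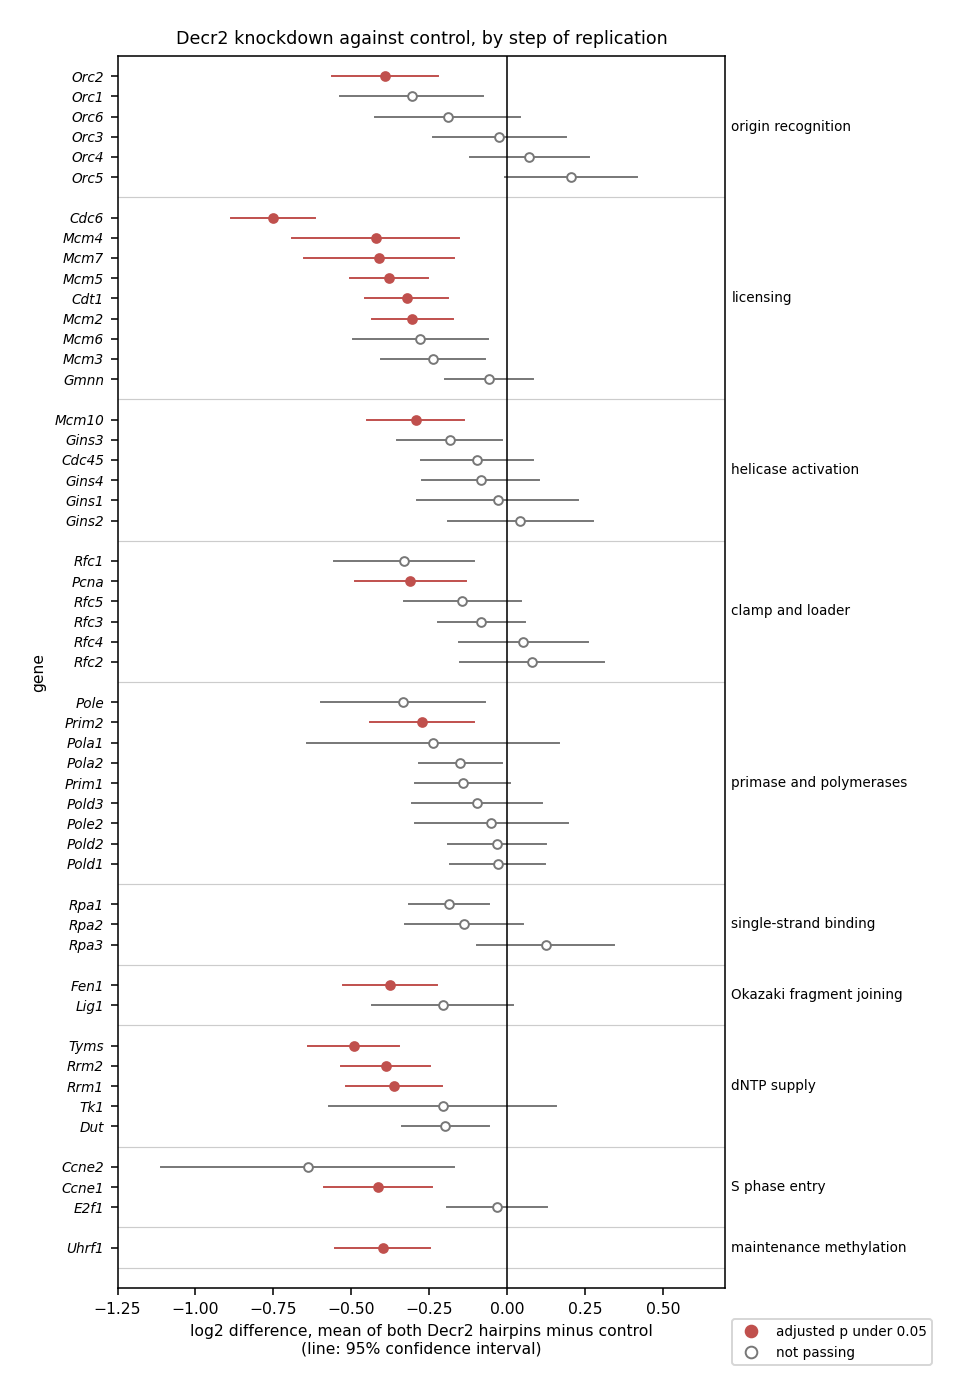
Log2 difference of the average of both Decr2 hairpins minus control for each of the 50 genes, grouped by step, with 95% confidence intervals. Filled points are the 16 genes with an adjusted p under 0.05, all left of zero; the open points to the right of zero are Orc4, Orc5, Gins2, Rfc2, Rfc4 and Rpa3.

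Promoter sequences are shown for Cdc6, Tyms and Mcm5, the 3 genes with the smallest adjusted p in the average of both hairpins. They are RefSeq windows on GRCm38.p6, 300 bases long, from 250 bases before to 50 bases after the annotated transcript start, read along the gene. Cdc6 is at chr11:98907901-98908200 on the plus strand, Tyms at chr5:30073576-30073875 on the minus strand and Mcm5 at chr8:75109259-75109558 on the plus strand. Capitals mark matches on either strand to the E2F sequences TTTGGCGC, TTTCGCGC, TTTCCCGC and TTTGCCGC and to the CCAAT box.
Cdc6: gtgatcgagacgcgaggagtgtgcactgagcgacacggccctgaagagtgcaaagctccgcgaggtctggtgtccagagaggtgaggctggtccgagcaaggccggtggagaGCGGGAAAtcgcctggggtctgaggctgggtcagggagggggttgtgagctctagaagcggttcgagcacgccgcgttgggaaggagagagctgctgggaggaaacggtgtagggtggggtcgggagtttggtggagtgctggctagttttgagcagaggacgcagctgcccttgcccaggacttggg
Tyms: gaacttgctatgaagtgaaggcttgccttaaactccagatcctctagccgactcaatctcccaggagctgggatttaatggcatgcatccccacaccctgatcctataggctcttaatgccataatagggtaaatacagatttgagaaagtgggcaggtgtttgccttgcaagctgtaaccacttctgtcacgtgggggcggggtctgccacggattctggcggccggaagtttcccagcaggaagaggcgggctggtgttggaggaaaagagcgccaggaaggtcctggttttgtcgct
Mcm5: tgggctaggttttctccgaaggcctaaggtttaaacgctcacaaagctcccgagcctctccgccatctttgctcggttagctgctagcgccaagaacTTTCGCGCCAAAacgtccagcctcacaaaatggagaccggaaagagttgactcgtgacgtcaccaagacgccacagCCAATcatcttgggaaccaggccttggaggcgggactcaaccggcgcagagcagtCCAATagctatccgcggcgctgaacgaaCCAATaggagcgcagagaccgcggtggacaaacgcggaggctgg
The Cdc6 window held TTTCCCGC on the opposite strand, its leftmost base 138 bases before the start. The Mcm5 window held TTTCGCGC 153 bases before the start and TTTGGCGC on the opposite strand 149 bases before it, overlapping by 4 letters, and CCAAT 77 and 22 bases before the start and at transcribed base 7. The Tyms window held no match.

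Windows were found for 41 of the 50 genes. At least 1 of the E2F sequences stood in a window of 16 of these 41 genes (39.0%), against 2.60% of the 27025 genes of the promoter table, and a CCAAT box in 24 (58.5%), against 41.1%. Of the 50 windows of these genes, 6 held TTTGGCGC, 7 held TTTCGCGC, 8 held TTTCCCGC, 0 held TTTGCCGC and 27 held CCAAT. Among all 32851 windows the shares were 0.514% for TTTGGCGC, 0.323% for TTTCGCGC, 1.07% for TTTCCCGC, 0.441% for TTTGCCGC and 37.4% for CCAAT. Of the 14 genes with a window that fell in the average of both hairpins, 5 held an E2F sequence (35.7%), against 11 of the 27 that did not pass (40.7%). A CCAAT box stood in 9 of those 14 (64.3%) and in 15 of those 27 (55.6%). A match describes these letters and is no measured site. Gmnn, Mcm4, Gins1, Gins2, Gins4, Rfc2, Prim2, Pole and Ccne2 had no entry.

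Of the 6 subunits of the complex that marks origins, 1 fell. Orc2, a core subunit, was at 7.29, 7.38 and 7.52 in the shRNA1 libraries, at 7.44, 7.67 and 7.59 in the shRNA2 libraries and at 7.81, 7.93 and 7.88 in the control libraries. Every hairpin library lay below every control library. Orc2 fell by 0.48 (SE 0.09, adjusted p = 0.0112) with shRNA1, by 0.31 (SE 0.09, adjusted p = 0.0493) with shRNA2, and to 76.2% of control in the average of both (95% interval 67.7 to 85.7%, adjusted p = 0.00962). The shRNA2 call held only without shRNA1 replicate 0 among the libraries left out singly, and ended without the trend (0.0658), with a robust prior (0.0507) and under quantile normalization (0.0888). Leaving out control replicate 1 or 2 ended the call for the average (adjusted p = 0.0603 and 0.0518) and that for shRNA1 (0.0563 and 0.0529).

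Orc1, the subunit whose protein level cycles in human cells, was at 4.66, 4.69 and 4.62 with shRNA1, at 4.64, 4.34 and 4.67 with shRNA2 and at 4.74, 4.89 and 5.09 in control. Its hairpin libraries also lay below every control, but its difference of -0.31 in the average missed the threshold (adjusted p = 0.068); taking the replicate number as a block, it passed (0.041). Orc5 had the largest positive value among all 50 genes, 0.20 in the average (adjusted p = 0.165), with the libraries overlapping. Orc3, Orc4 and Orc6 were at -0.02, 0.07 and -0.19 and did not pass.

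Of the 9 licensing genes, 4 fell with shRNA1, 5 with shRNA2 and 6 in the average. Cdc6, the ATPase that recruits the MCM ring to the origin complex, stood at 5.64, 5.58 and 5.62 in the shRNA1 libraries, at 5.76, 5.78 and 5.81 in the shRNA2 libraries and at 6.35, 6.51 and 6.49 in the control libraries. The 6 hairpin libraries spanned less than the gap that separated them from the lowest control library. Cdc6 fell to 56.0% of control with shRNA1 (95% interval 50.3 to 62.4%, adjusted p = 0.000591) and to 63.1% with shRNA2 (56.6 to 70.2%, adjusted p = 0.0016), the smallest adjusted p of the 50 genes in both.

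Cdt1, which brings the ring to the origin with Cdc6, was at 6.23, 6.25 and 6.12 with shRNA1, at 6.04, 6.09 and 6.02 with shRNA2 and at 6.45, 6.41 and 6.49 in control. All hairpin libraries were below all control libraries, and those of shRNA2 lay below those of shRNA1. It fell by 0.25 (SE 0.07, adjusted p = 0.0448) with shRNA1 and by 0.40 (SE 0.07, adjusted p = 0.00864) with shRNA2, and the difference between the hairpins, -0.15, did not pass (adjusted p = 0.511). The shRNA1 call held only without shRNA1 replicate 0 among the libraries left out singly, and ended with only the groups compared (0.0987), without the trend (0.059) and under quantile normalization (0.098). The call for the average (adjusted p = 0.00805) was lost without control replicate 2 (0.0531). Gmnn, which encodes geminin, the inhibitor of Cdt1, was at 5.33, 5.38 and 5.47 with shRNA1, at 5.39, 5.50 and 5.38 with shRNA2 and at 5.46, 5.50 and 5.45 in control. Its groups overlapped, and its difference in the average was -0.06 (95% interval -0.20 to 0.08, adjusted p = 0.554).

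The 6 genes of the MCM2-7 helicase ring all had negative differences, between -0.24 and -0.42 in the average of both hairpins, with a median of -0.34. Mcm5 was at 7.54, 7.60 and 7.63 in the shRNA1 libraries, at 7.59, 7.60 and 7.55 in the shRNA2 libraries and at 7.90, 7.99 and 8.0 in the control libraries. The hairpin libraries lay together, all below the controls. Mcm5 fell by 0.37 (SE 0.06, adjusted p = 0.00908) with shRNA1 and by 0.38 (SE 0.06, adjusted p = 0.00776) with shRNA2, and the difference between the hairpins was -0.01 (95% interval -0.15 to 0.14). Leaving out control replicate 1 (adjusted p = 0.0511) or 2 (0.0529) ended the shRNA1 call.

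Mcm2, Mcm4 and Mcm7 fell in the average by 0.30 (adjusted p = 0.00915), 0.42 (0.0385) and 0.41 (0.0295). Mcm2 was at 8.97, 8.97 and 8.94 with shRNA1, at 9.06, 9.09 and 9.05 with shRNA2 and at 9.23, 9.37 and 9.35 in control, with the shRNA1 libraries lowest. Mcm3 and Mcm6 were at -0.24 (adjusted p = 0.0565) and -0.28 (0.0751) and did not pass. In Mcm4, Mcm6 and Mcm7 the libraries numbered 0 were the lowest of each group: Mcm7 was at 7.72, 7.98 and 8.04 with shRNA1, at 7.51, 7.77 and 7.82 with shRNA2 and at 8.03, 8.37 and 8.25 in control. With the replicate number as a block all 6 ring genes passed in the average, Mcm3 at an adjusted p of 0.0149 and Mcm6 at 0.0066. With single libraries left out, Mcm2 fell in 7 of 9 cases, Mcm7 in 6 and Mcm4 in 4. Quantile normalization moved Mcm2 to -0.15 in the average (adjusted p = 0.0883) and ended its call, as it did that of Mcm4 (0.0525), which also missed without the trend (0.0507).

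Helicase activation changed in 1 of 6 genes. Mcm10, which helps start the loaded helicase, was at 6.72, 6.76 and 6.75 with shRNA1, at 6.49, 6.66 and 6.61 with shRNA2 and at 6.83, 6.99 and 7.05 in control. The libraries of the 3 groups did not overlap, with shRNA2 lowest. Mcm10 fell by 0.37 with shRNA2 (SE 0.08, adjusted p = 0.0188), and its difference with shRNA1, -0.21, did not pass (adjusted p = 0.115; 0.0448 with the replicate block). In the average it fell to 81.6% of control (adjusted p = 0.0202), and leaving out control replicate 1 (0.101) or 2 (0.114) ended that call. The shRNA2 call was also lost without those controls (0.0825 and 0.0872) and without shRNA2 replicate 0 (0.0503) or 2 (0.063).

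Cdc45 and the 4 GINS genes, whose proteins join the MCM ring to form the running helicase, did not pass. Cdc45 was at 6.24, 6.34 and 6.33 with shRNA1, at 6.23, 6.49 and 6.45 with shRNA2 and at 6.31, 6.47 and 6.55 in control, with overlapping groups and a difference of -0.10 (95% interval -0.28 to 0.08). Gins1, Gins2, Gins3 and Gins4 were at -0.03, 0.04, -0.18 and -0.08 in the average. Of these, Gins3 had all hairpin libraries, 4.09 to 4.28, below the controls, 4.33 to 4.44, with an adjusted p of 0.121. No GINS gene passed, with or without the replicate block.

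The clamp fell with shRNA1 while the loader did not pass. Pcna, the ring that tethers polymerases to DNA, was at 8.74, 8.79 and 8.86 with shRNA1, at 8.82, 9.09 and 8.94 with shRNA2 and at 9.06, 9.26 and 9.24 in control. The shRNA1 libraries lay below every control, and replicate 1 of shRNA2 lay above replicate 0 of control. Pcna fell by 0.39 with shRNA1 (SE 0.09, adjusted p = 0.0273), and the difference with shRNA2, -0.23, did not pass (adjusted p = 0.126; 0.037 with the replicate block). In the average it fell to 80.6% of control (adjusted p = 0.0272). That call was lost without control replicate 1 (0.134), control replicate 2 (0.128) or shRNA2 replicate 2 (0.0583), and the shRNA1 call without control replicate 1 (0.116) or 2 (0.113) or shRNA1 replicate 1 (0.0692) or 2 (0.0564). Quantile normalization moved Pcna to -0.17 in the average (0.17) and -0.24 with shRNA1 (0.111) and ended both calls. The reference names 2 Pcna pseudogenes, and whether reads were shared with them is not given in the sources used here.

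Rfc1, the large subunit of the clamp loader, was at 7.34, 7.62 and 7.75 with shRNA1, at 7.33, 7.56 and 7.59 with shRNA2 and at 7.77, 7.95 and 7.87 in control. All hairpin libraries lay below all controls. Its difference of -0.33 just missed the threshold (adjusted p = 0.0504), and its blocked value (0.0053) and its value after median centring (0.0411) passed. The small subunits Rfc2, Rfc3, Rfc4 and Rfc5 were at 0.08, -0.08, 0.05 and -0.14 and did not pass.

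Primase and the polymerases held the 1 gene that differed between the hairpin lines. Prim2, the large subunit of primase, which lays the RNA primers, was at 5.90, 6.02 and 6.13 in the shRNA1 libraries, at 6.57, 6.50 and 6.48 in the shRNA2 libraries and at 6.41, 6.59 and 6.62 in the control libraries. The shRNA1 libraries lay below all others, and the shRNA2 libraries lay among the controls. Prim2 fell to 69.5% of control with shRNA1 (95% interval 60.8 to 79.5%, adjusted p = 0.0077), in every fit with 1 library left out. With shRNA2 it was at -0.02 (95% interval -0.22 to 0.17, adjusted p = 0.89).

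Between the hairpin lines, shRNA2 over shRNA1, Prim2 was 0.50 higher (SE 0.09, adjusted p = 0.0486) and no other of the 50 genes passed, where 0.455% of all genes were called in either direction. That call held only without control replicate 0 when libraries were left out singly, reached 0.216 without shRNA2 replicate 1, and was 0.156 with only the groups compared in the fit and 0.0682 without the trend. With the average of both hairpins Prim2 fell by 0.27 (adjusted p = 0.0341), a value that averages unlike lines, and this call was lost without control replicate 1 (0.148) or 2 (0.158), shRNA1 replicate 1 (0.0574), or shRNA2 replicate 1 (0.0704) or 2 (0.0737). Prim1, the catalytic subunit of primase, was at 6.26, 6.13 and 6.16 with shRNA1, at 6.27, 6.50 and 6.36 with shRNA2 and at 6.39, 6.42 and 6.46 in control. Its shRNA1 libraries also lay below all controls, with differences of -0.24 for shRNA1 (adjusted p = 0.0792) and -0.05 for shRNA2 (0.754), and 0.19 between the hairpins (0.444).

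Pole, the catalytic subunit of the leading-strand polymerase, showed the other order. It was at 6.16, 6.54 and 6.30 with shRNA1, at 6.17, 5.75 and 6.08 with shRNA2 and at 6.38, 6.65 and 6.48 in control. The shRNA2 libraries lay below all controls, and the shRNA1 libraries overlapped both groups. Pole fell by 0.50 with shRNA2 (SE 0.14, adjusted p = 0.042) and was at -0.17 with shRNA1 (0.45), and the difference between the hairpins, -0.33, did not pass (0.444). The shRNA2 call was lost without any 1 control library (0.0559 to 0.154), shRNA1 replicate 2 (0.0633) or shRNA2 replicate 1 (0.133) or 2 (0.0916), and without the trend (0.0539). Pole2, its second subunit, was at -0.05 in the average.

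The polymerase alpha genes Pola1 and Pola2, whose products extend the primers, were at -0.24 (adjusted p = 0.394) and -0.15 (0.11). Pola1 was widely spread, at 6.65, 7.27 and 7.39 with shRNA1, at 6.93, 7.19 and 7.33 with shRNA2 and at 7.05, 7.58 and 7.46 in control. The libraries numbered 0 were the lowest of each group, and with the replicate block Pola1 passed in the average (adjusted p = 0.048). Pold1, Pold2 and Pold3, subunits of the lagging-strand polymerase, were at -0.03, -0.03 and -0.10, with intervals between -0.31 and 0.13. The shRNA2 libraries of Pold1 lay below its controls, and the other hairpin groups of these 3 genes overlapped with control.

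Single-strand binding held the trimer that coats unwound DNA. Rpa1, its large subunit, was at 8.27, 8.14 and 8.24 with shRNA1, at 8.31, 8.37 and 8.30 with shRNA2 and at 8.42, 8.48 and 8.48 in control. The 3 groups did not overlap, with shRNA1 lowest. Rpa1 fell by 0.24 with shRNA1 (SE 0.07, adjusted p = 0.0423), a call that held only without shRNA1 replicate 0 or shRNA2 replicate 0 when libraries were left out singly. It also ended under quantile normalization, at -0.15 (0.236), with only the groups compared (0.092) and without the trend (0.059). In the average it was at -0.19 (adjusted p = 0.052), and the blocked value (0.0374), the value after median centring (0.0438) and that without shRNA1 replicate 0 (0.0237) passed. Rpa2 and Rpa3 were at -0.14 and 0.12 and did not pass.

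Of the pair that joins Okazaki fragments, the nuclease passed. Fen1, which trims the flap ahead of ligation, was at 6.43, 6.28 and 6.36 with shRNA1, at 6.46, 6.31 and 6.36 with shRNA2 and at 6.65, 6.79 and 6.78 in control. All hairpin libraries were below all controls and the hairpin lines overlapped each other. Fen1 fell to 77.1% of control in the average (95% interval 69.4 to 85.6%, adjusted p = 0.00738), by 0.38 (adjusted p = 0.0161) with shRNA1 and by 0.37 (0.018) with shRNA2. The average passed with any 1 library left out, whereas each single-hairpin call was lost without control replicate 1 (shRNA1 0.0754, shRNA2 0.0825) or 2 (0.0754 and 0.0805) or without replicate 1 (0.0523 and 0.0735) or 2 (0.0509 and 0.0682) of its own line. Lig1, the ligase, was at 7.48, 7.71 and 7.73 with shRNA1, at 7.67, 7.59 and 7.73 with shRNA2 and at 7.61, 8.0 and 7.97 in control. Its low control library overlapped the hairpin libraries, and its difference of -0.21 did not pass (adjusted p = 0.185).

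Of the 5 genes of dNTP supply, Tyms, Rrm1 and Rrm2 fell in the average. Tyms, thymidylate synthase, was at 6.58, 6.47 and 6.54 in the shRNA1 libraries, at 6.59, 6.56 and 6.40 in the shRNA2 libraries and at 6.99, 7.08 and 6.98 in the control libraries. The hairpin lines overlapped each other, well below the controls. Tyms fell to 71.3% of control with shRNA1 (95% interval 63.5 to 80.1%, adjusted p = 0.006) and to 70.8% with shRNA2 (63.0 to 79.6%, adjusted p = 0.00546), with any 1 library left out as well. The reference names 1 Tyms pseudogene, and whether reads were shared with it is not given in the sources used here.

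Rrm1 and Rrm2 encode the large and small subunits of ribonucleotide reductase. Rrm2 was at 9.38, 9.35 and 9.35 with shRNA1, at 9.50, 9.30 and 9.34 with shRNA2 and at 9.76 in each of the 3 control libraries. Rrm1 was at 9.26, 9.07 and 9.12 with shRNA1, at 9.13, 9.05 and 9.13 with shRNA2 and at 9.41, 9.58 and 9.49 in control. In both genes every hairpin library lay below every control library. Rrm2 fell to 76.3% of control in the average (95% interval 69.2 to 84.3%, adjusted p = 0.00501) and Rrm1 to 77.8% (69.8 to 86.6%, adjusted p = 0.00926).

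With 1 hairpin at a time, Rrm2 fell by 0.40 with shRNA1 (adjusted p = 0.0115) and by 0.38 with shRNA2 (0.0132), and Rrm1 by 0.34 (0.0267) and 0.39 (0.0162). The Rrm2 call for the average held with any 1 library left out, and that of Rrm1 was lost without control replicate 1 (0.0615) or 2 (0.051). The single-hairpin calls of both were lost without those controls (Rrm2 0.0551 to 0.0606, Rrm1 0.0663 to 0.118), for shRNA2 also without shRNA2 replicate 1 (0.0575 and 0.0668) or 2 (0.0609 and 0.0574), and for Rrm1 with shRNA1 also without shRNA1 replicate 1 (0.0795) or 2 (0.0803) and when the fit held only shRNA1 and control (0.0657). Quantile normalization ended the single-hairpin calls of Rrm2, at -0.26 with shRNA1 (0.0632) and -0.24 with shRNA2 (0.08), and of Rrm1, at -0.20 (0.125) and -0.26 (0.0602). In the average it moved them to -0.25 (0.0359) and -0.23 (0.045).

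Dut, the dUTPase that keeps uracil out of DNA, was at 6.73, 6.54 and 6.64 with shRNA1, at 6.78, 6.88 and 6.79 with shRNA2 and at 6.89, 6.95 and 6.93 in control. The 3 groups did not overlap, although shRNA2 lay close under the controls. Dut fell by 0.29 with shRNA1 (adjusted p = 0.0323) and was at -0.11 with shRNA2 (0.354), and the difference of 0.18 between the hairpins did not pass (0.433). In the average it was at -0.20 (0.0552), and passed with the replicate block (0.0441), after median centring (0.0493) and without shRNA1 replicate 0 (0.0194). The shRNA1 call was lost without any 1 control library (0.0538 to 0.123), shRNA1 replicate 1 (0.0903) or 2 (0.0817) or shRNA2 replicate 2 (0.0575), with only the groups compared (0.075) and under quantile normalization (0.105). Tk1, the salvage kinase for thymidine, was at 7.72, 7.09 and 7.04 with shRNA1, at 7.25, 6.85 and 6.75 with shRNA2 and at 7.41, 7.24 and 7.32 in control. The libraries numbered 0 were the highest of each group, replicate 0 of shRNA1 was the highest of all 9, and the difference of -0.21 in the average did not pass (adjusted p = 0.409), while the blocked value with shRNA2 did (0.0346).

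S phase entry was represented by the E cyclins, which activate Cdk2 at the start of S phase, and by the transcription factor E2f1. Ccne1 was at 5.31, 5.34 and 5.21 with shRNA1, at 5.39, 5.49 and 5.49 with shRNA2 and at 5.70, 5.95 and 5.71 in control. The 3 groups did not overlap, with shRNA1 lowest. Ccne1 fell to 75.0% of control in the average (95% interval 66.5 to 84.6%, adjusted p = 0.00869), with any 1 library left out as well. It fell by 0.50 with shRNA1 (adjusted p = 0.0105) and by 0.33 with shRNA2 (0.0423), and the shRNA2 call held only without shRNA1 replicate 0 among the libraries left out singly and missed without the trend (0.0505).

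Ccne2 had the largest SD within a group among the 50 genes. It was at 4.52, 5.24 and 5.53 with shRNA1, at 5.31, 5.89 and 5.78 with shRNA2 and at 5.93, 5.97 and 6.16 in control. All hairpin libraries lay below all controls, and the SD was 0.52 with shRNA1, 0.31 with shRNA2 and 0.12 in control (n = 3 each). Ccne2 fell by 0.92 with shRNA1 (SE 0.24, adjusted p = 0.0384), and was at -0.36 with shRNA2 (0.365) and at -0.64 in the average (0.0637), which passed with the replicate block (0.0067) and without shRNA1 replicate 0 (0.0304) or 2 (0.0339). The shRNA1 call was lost without any 1 control library (0.0688 to 0.136), shRNA1 replicate 1 (0.068) or shRNA2 replicate 1 (0.0567) or 2 (0.0591), with only the groups compared (0.0664), without the trend (0.0505) and under quantile normalization (0.0529). E2f1 itself was at 6.46, 6.31 and 6.40 with shRNA1, at 6.45, 6.60 and 6.56 with shRNA2 and at 6.38, 6.51 and 6.60 in control. Its groups overlapped, and its difference in the average was -0.03 (95% interval -0.19 to 0.13, adjusted p = 0.791).

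Uhrf1, which recognises newly copied DNA and brings the maintenance methyltransferase to it, was at 8.74, 8.89 and 8.82 in the shRNA1 libraries, at 8.80, 8.84 and 8.92 in the shRNA2 libraries and at 9.13, 9.29 and 9.28 in the control libraries. Every hairpin library was below every control library. Uhrf1 fell to 75.8% of control in the average (95% interval 68.2 to 84.2%, adjusted p = 0.00581), with any 1 library left out as well. It fell by 0.42 with shRNA1 (adjusted p = 0.0122) and by 0.38 with shRNA2 (0.016). The single-hairpin calls were lost without control replicate 1 (0.0628 and 0.0763) or 2 (0.0623 and 0.075), and that of shRNA2 also without shRNA2 replicate 1 (0.0617).

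**Figure D4:**
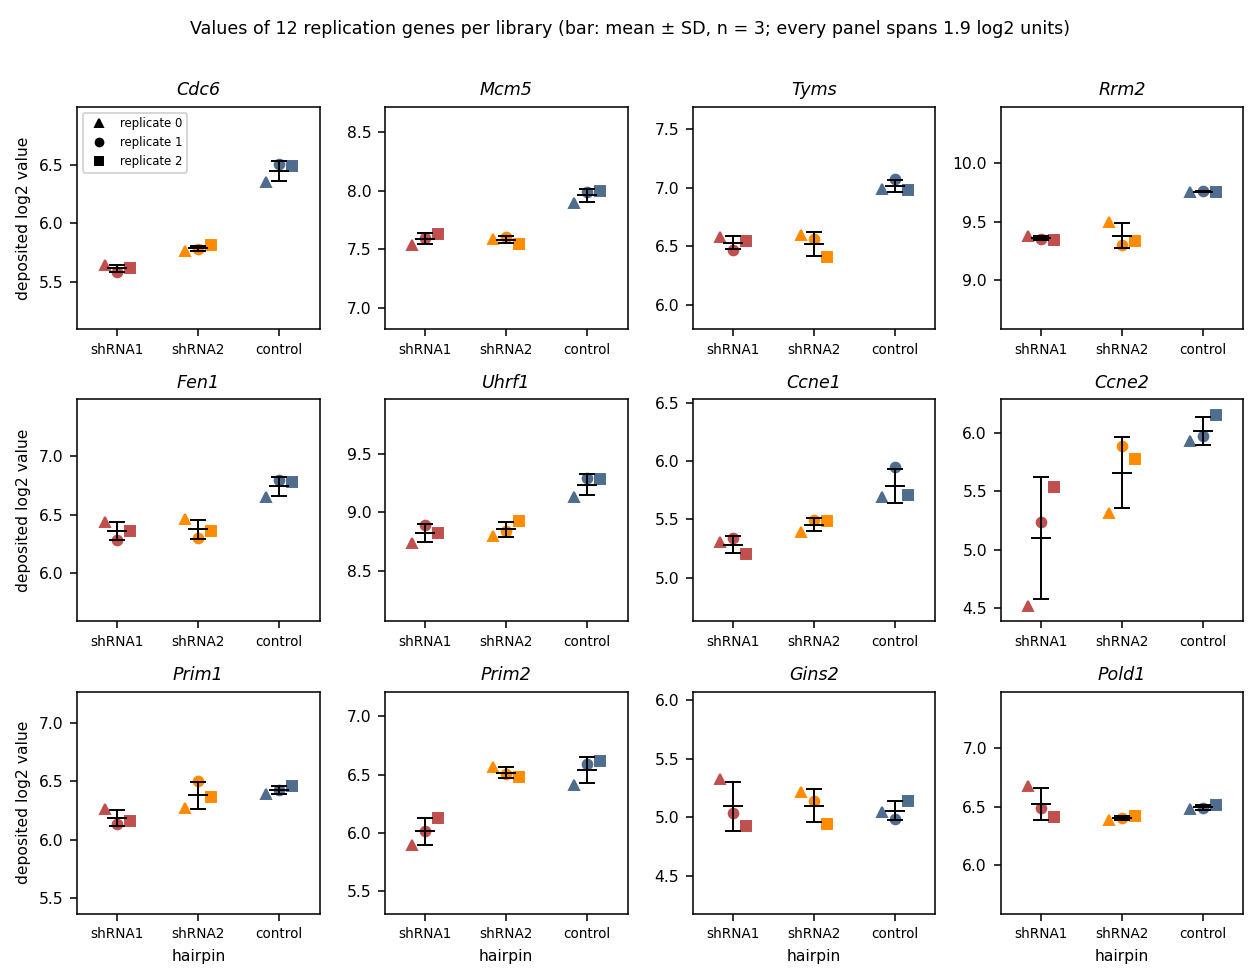
Deposited log2 values of 12 replication genes in every library, with Decr2 shRNA1, Decr2 shRNA2 and control from left to right, mean and SD as bars (n = 3) and the replicate number as marker shape; the panels have their own centre and the same span. Cdc6, Mcm5, Tyms, Rrm2, Fen1, Uhrf1, Ccne1 and Ccne2 have all hairpin libraries under all controls, Prim1 and Prim2 those of shRNA1, Pold1 those of shRNA2, and the groups of Gins2 overlap.

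Across the steps, Cdc6, Mcm5, Fen1, Tyms, Rrm2, Ccne1 and Uhrf1 fell in the average in all 9 fits that left out 1 library. Between the hairpin lines these genes differed by at most 0.17 in size (Cdc6 and Ccne1), without passing. The authors' deposited table called 16 of the 50 genes lower with shRNA1, against 5.35% of all its genes, and 13 with shRNA2, against 5.50%. All of these were also called here, and Orc2 with shRNA2 was called only here.

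A second list held 57 measured genes that act beside these in replication, in origin firing, fork protection, chromatin assembly and cell cycle control. In the average of both hairpins 14 fell, 2 rose and 41 did not pass, with a median of -0.19, where 7.89% of all genes were called lower and 9.69% higher. With the replicate block 25 fell and 3 rose, where 14.1% of all genes were called lower and 16.2% higher. Without control replicate 1 or 2, 4 fell and 0 rose, where 2.22% and 2.20% of all genes were lower and 3.50% and 3.66% higher. Without shRNA2 replicate 1 or 2, 9 fell, where 5.24% and 5.18% of all genes were lower. Cdc25a, the phosphatase that activates Cdk2, was at 6.19, 6.24 and 6.26 with shRNA1, at 6.10, 6.20 and 6.25 with shRNA2 and at 6.58, 6.66 and 6.73 in control, and fell to 73.3% of control in the average (adjusted p = 0.00288). Clspn, which encodes the fork protein claspin, was at 5.65, 5.94 and 6.17 with shRNA1, at 5.87, 6.01 and 6.26 with shRNA2 and at 6.50, 6.84 and 6.66 in control, and fell to 62.4% (adjusted p = 0.00966). In both genes all hairpin libraries lay below all controls.

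Dna2, a nuclease that acts with Fen1, fell to 76.1% of control (adjusted p = 0.00637). The 2 genes that rose were named after their values were seen. Rrm2b, the alternative small subunit of ribonucleotide reductase, was at 5.38, 5.70 and 5.64 with shRNA1, at 5.41, 5.75 and 5.65 with shRNA2 and at 5.27, 5.02 and 4.87 in control, and rose to 145% of control (adjusted p = 0.0152). Pold4, the small subunit of the lagging-strand polymerase, was at 4.14, 3.55 and 3.34 with shRNA1, at 3.88, 3.52 and 3.58 with shRNA2 and at 3.29, 2.34 and 2.57 in control, and rose to 191% (adjusted p = 0.026). All hairpin libraries lay above all controls in both genes.

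Of 35 mitotic genes, set beside these as a list of the later cell cycle, 3 fell and 0 rose in the average, with a median of -0.12, where 7.89% of all genes were called lower and 9.69% higher. In this fit the share of the list that fell was near that of all genes. In 7 of the 35 all 6 hairpin libraries lay below all 3 control libraries, against 10.9% of all genes. In 0 of the 35 did all 6 lie above, against 12.0%. The 3 were Kif23, a kinesin of cytokinesis, and the spindle checkpoint genes Ttk and Bub1b, at -0.28 (adjusted p = 0.036), -0.26 (0.0373) and -0.19 (0.0409). With the replicate block 8 fell and 1 rose, where 14.1% of all genes were lower and 16.2% higher, and Ttk then also passed with shRNA1 (0.033) and shRNA2 (0.0371). The count was 0 without control replicate 1 or 2, where 2.22% and 2.20% of all genes fell. It was also 0 without shRNA1 replicate 1 (6.52% of all genes) or shRNA2 replicate 1 or 2 (5.24% and 5.18%). The count was 1 without control replicate 0 (5.71%) and 8 without shRNA1 replicate 0 (11.6%). Whether the replication genes moved more than the mitotic genes was not tested.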

How the data were processed

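Total RNA of cultured cells was sequenced in 9 libraries, and the read totals are unknown. Per the submitters' processing notes, kallisto, FastQC and limma were used. Their versions, the build, the annotation and any low-expression filter were "not given in the sources used here". Each gene has 1 log2 value per library, deposited by the authors. The table also holds the authors' log2 fold changes and adjusted p-values for each hairpin against control, used only where that table is named. Column codes mark the control and the replicate number; the Decr2 columns were tied to their hairpins by those headed fold changes, which lay within 0.05 of the difference of means for 99.95% of genes (shRNA1) and 99.7% (shRNA2).

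Tests were run with limma 3.58.1 (R 4.3.3) on these deposited log2 values: a mean per group, all 9 libraries, an intensity trend (3.3 prior and 6 residual degrees of freedom), and Benjamini-Hochberg adjustment over all 10762 genes. No filter or pseudocount was added. The fit was tested on simulated data. Differences are hairpin minus control, or shRNA2 minus shRNA1, and a percent of control is 2 to the power of the difference. The labels do not say what the replicate numbers mark, so the main fit had no block and leaves any pairing by number out. Deviations from group means correlated at 0.126 to 0.644 in the 9 same-number pairs of libraries, all positive. In the other 18 pairs they correlated at -0.629 to 0.531. These ranges overlap, yet libraries of the same number shared part of their deviations. Of all genes, 19.4% had the library numbered 0 lowest in all 3 groups, and 19.6% had it highest. The main fit counts this shared part as spread within groups, so its calls and its misses depend on that choice. In the average 16 of the 50 genes fell without the block and 24 with it, where 7.89% and 14.1% of all genes fell. A fit with the number as a block was run as an alternative beside the main one.

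The genes, their steps and the other lists were chosen with earlier results of these data known. Per-library values are given in each step for up to 3 genes with the smallest adjusted p among those passing in the average of both hairpins (failing any, the first), for any that rose against control or passed between the hairpins, and for others chosen after their values were seen; of the other lists, up to 4, of which 1 is not reported here. A count of genes passing with both hairpins was planned and is not given, since those comparisons share control libraries. Alternatives were the block, only the groups compared, no trend, a robust prior, median centring, quantile normalization, the lowest 25% of genes removed, each library left out, and the libraries numbered 0 left out. Promoter windows and starts are RefSeq's. Proteins were not used here.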

Additional observations from a re-analysis of the deposited data

Results flagged for a closer look

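Prim2, the large subunit of primase, differed between the knockdown lines. It was at 6.57, 6.50 and 6.48 in the Decr2 shRNA2 libraries and at 5.90, 6.02 and 6.13 in the Decr2 shRNA1 libraries, a difference of 0.50 (95% interval 0.31 to 0.69, limma adjusted p = 0.0486). It is given here because the effects of the 2 hairpins on this gene differed by a test of the difference itself. The control libraries, at 6.41, 6.59 and 6.62, lay with those of shRNA2. All 3 shRNA2 libraries were higher than all 3 shRNA1 libraries. With 1 library left out the adjusted p ran from 0.0467 (control replicate 0) to 0.216 (shRNA2 replicate 1), and it passed in the first of these cases alone.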

How the results depend on the processing

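Taking the replicate number as a block, 23 genes fell with shRNA1, 21 with shRNA2 and 24 in the average, in place of 16, 14 and 16, while the share of all genes that fell was 11.2%, 10.6% and 14.1% in place of 5.49%, 5.67% and 7.89%; of the other replication genes 25 fell in place of 14, and of the mitotic genes 8 in place of 3. Among the genes chosen by rule the blocked fit changed no call other than those of Mcm10 with shRNA1, Pcna with shRNA2, Rpa1 in the average, and Ttk with each hairpin. Leaving out 1 library gave 4 to 17 fallen genes with shRNA1, 4 to 17 with shRNA2, 7 to 20 in the average and 0 to 1 between the hairpins. It gave 4 to 19 of the other replication genes and 0 to 8 of the mitotic genes. In these fits 1.19% to 6.72% of all genes fell with shRNA1, 1.38% to 10.3% with shRNA2 and 2.20% to 11.6% in the average. From 0.0279% to 0.873% of all genes passed between the hairpins. Without the 3 libraries numbered 0 the counts were 28, 25 and 29, with 2, 3 and 3 genes rising, 6 between the hairpins, 31 and 16; of all genes 16.9%, 18.1% and 20.5% then fell and 8.87% passed between the hairpins. Quantile normalization gave 8 fallen genes with shRNA1 and 1 mitotic gene in the average, where 4.43% and 7.24% of all genes fell. It moved the median of dNTP supply to -0.23 and Uhrf1 to -0.27. It ended calls of Orc2, Cdt1, Mcm2, Mcm4, Pcna, Rpa1, Rrm1, Rrm2, Dut and Ccne2 in at least 1 comparison with control. The cause was not tested. Median centring gave 6 mitotic genes, where 8.93% of all genes fell. Between the hairpins 0 genes passed without the trend or with only the groups compared. Prim2 with shRNA2 changed sign at 0.0046 under quantile normalization and ran from -0.0888 to 0.0167 (0.0030 without control replicate 1) with 1 library left out, never near the threshold. Of 717 alternative values of the genes chosen by rule among the 50 594 kept direction and call, 112 lost the call, 8 gained it and 3 changed sign. The average could not be fitted with only the groups compared, since it uses all 9 libraries. Read depth is unknown, so precision rests on 3 libraries a group.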

Other observations

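Many replication genes varied with the replicate number inside every group. In 19 of the 50 genes, against 19.4% of all genes, the library numbered 0 was the lowest of its group in all 3 groups, and in 3, Tk1, Rfc2 and Rfc5, against 19.6% of all genes, it was the highest. The 19 held 4 of the 6 MCM ring genes (Mcm3, Mcm4, Mcm6 and Mcm7), 4 of the 6 Orc genes, and Mcm10, Cdc45, Gins1, Gins3, Pcna, Rfc1, Rfc4, Pola1, Pole2, Ccne2 and Uhrf1. Over the MCM2-7 ring the median difference of library 0 from the others of its group was -0.14 with shRNA1, -0.17 with shRNA2 and -0.24 in control. Over all 50 genes it was -0.07, -0.07 and -0.14, and over all genes of the table it was at most 0.0108. What the numbers mark is not in the labels.

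Without the libraries numbered 0, which leaves 2 a group, Orc4 was 0.23 higher with shRNA1 (adjusted p = 0.0158) and 0.20 higher with shRNA2 (0.0233), and Orc5 was 0.26 higher with each (0.0336 with each). In the same fit Tk1 fell by 0.22 with shRNA1 (adjusted p = 0.0249) and by 0.48 with shRNA2 (0.000702). Between the hairpins, shRNA2 over shRNA1, Prim2 (0.42, adjusted p = 0.00574), Prim1, Dut and Ccne2 were higher there, and Pole (-0.51, 0.0359) and Tk1 were lower.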
